A study of Homo sapiens with 12 samples.

Results

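TAF12, TAF4 and TAF4B encode the subunits of one histone-fold pair of TFIID, the complex of TBP and its associated factors that recognises core promoters for RNA polymerase II. They are 3 of the 32010 genes in the deposited table, found there by name, 1 row each, and all 3 were among the 19424 genes that passed the filter on low counts. TAF12 was chosen by a measured value, the size of its log2 difference, which in an earlier analysis of the same libraries was the largest of the TFIID subunits after TAF5. TAF4 and TAF4B were taken as its partners by name. The rule does not name the comparison. The depletion of TAF5 was taken as the one that chose TAF12, so no test is given there for any of the 3 genes. TAF12 was tested only between the groups with a TAF5 transgene, which share no library with that comparison. All libraries entered 1 fit, however, so the spread used in that test also draws on the libraries of the depletion.

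The RNA came from HEK293 Flp-In cells, an established human embryonic kidney line that carries a single genomic site for a transgene. There were 12 libraries of polyadenylated RNA, 3 in each of 4 groups. Control cells got siRNAs without a target (siNT). In the other groups endogenous TAF5 was knocked down, either alone (siTAF5) or with an siRNA-resistant transgene for full-length TAF5 (FL) or for the isoform without exon 8 (ΔE8). The comparison of FL with ΔE8 addresses the role of that exon in gene expression. The TAF5 siRNA was thus shared by 3 of the groups, and all 12 libraries carry the same label for siRNA and doxycycline treatment. Doxycycline, which switches on the transgene, was given 24 h after transfection and for 48 h. A single siRNA was used against TAF5, the line in which siNT and siTAF5 cells were grown is not stated, and the doxycycline dose differed between FL and ΔE8, so dose and construct cannot be told apart. Nothing states that replicates were separate cultures, so the spread between libraries may be technical.

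TFIID subunits of the TAF family often dimerise through histone folds. TAF4 carries the H2A-like and TAF12 the H2B-like partner of one such dimer, which sits with TAF5, TAF6 and TAF9 in the core of the complex. TAF4B is a paralog of TAF4 that can take its place beside TAF12 and is best known from the gonads and from B cells. TAF12 also belongs to the coactivator SAGA, where it pairs with TADA1 in place of TAF4.

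Library totals were between 41799164 and 62452619 estimated counts. Levels are given in CPM, the gene count relative to the scaled library total, and each ± is the SD over the 3 libraries of a group (n = 3). TAF5 itself had a level of 40 ± 0.698 CPM in siNT and of 6.72 ± 0.612 CPM after its knockdown. It stood at 105 ± 2.44 CPM in FL and 88 ± 0.757 CPM in ΔE8, so its RNA was above the siNT level in both groups with a transgene. These are RNA counts for the whole gene, not corrected for the exon that ΔE8 lacks. The series describes the transgene as expressed at endogenous levels. Protein was not measured in these libraries, so the RNA values cannot check that description for protein. All 7 genes listed as expressed in HEK293 cells, among them PAX2, VIM and NEFM, were above 1 CPM, and none of the 6 differentiated-kidney genes in the table was. The HEK293 list summed to between 1833 and 1907 CPM in siNT, 1902 and 1958 in FL, 2021 and 2112 in siTAF5 and 2178 and 2248 in ΔE8, the order of groups that TAF12 and TAF4 also had. Markers of other cell types were low: of 4 blood genes HBA1 alone passed 1 CPM while PTPRC, CD3E and HBB were under 0.1 CPM, and of 5 fibroblast genes COL1A1 and PDGFRA passed it while DCN and COL1A2 were under 0.1 CPM. The fibroblast list summed to between 15.9 and 16.4 CPM in siNT and to between 8.79 and 11.4 CPM in the other groups. The blood list summed to between 9.04 and 10.7 CPM in siNT, between 5.93 and 6.9 in siTAF5, between 9.27 and 9.93 in FL and between 6.22 and 7.55 in ΔE8. The part of these shifts in the results below was not tested. In bulk RNA, fewer cells of a type and less RNA per cell cannot be told apart.

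TAF12 RNA was at 189% of the siNT level when TAF5 was depleted, at 123% with full-length TAF5 added back, and at 199.8% with TAF5 that lacked exon 8. TAF12 supplies the H2B-like fold of the pair. TAF12 levels were 17.7, 16.8 and 16.8 CPM in the siNT libraries and 33, 31.6 and 32.1 CPM in the siTAF5 libraries. The FL libraries held 21, 20.1 and 21.8 CPM, and the ΔE8 libraries 33.7, 33.1 and 35.7 CPM. The 6 libraries of siTAF5 and ΔE8 were all above 31 CPM, the 6 of siNT and FL were all below 22 CPM. The counts behind these levels were between 848 and 2054 a library.

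**Figure D1:**
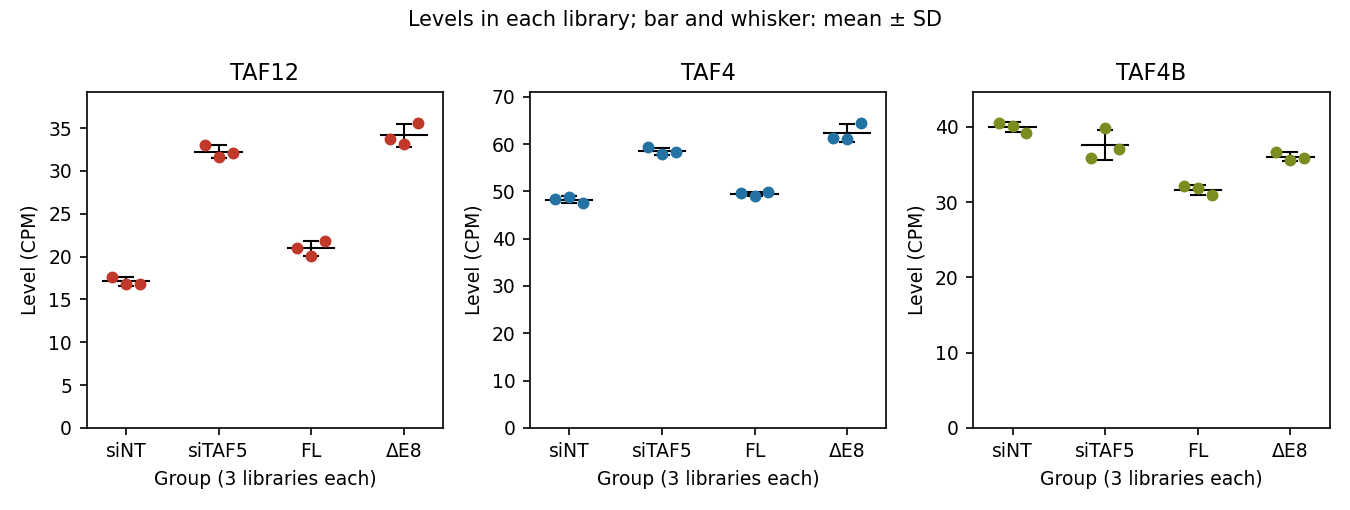
Level of TAF12, TAF4 and TAF4B in CPM (vertical axes from 0) in each of the 12 libraries, by group; points are libraries, the bar and whisker are the mean ± SD of 3. TAF12 and TAF4 are high in siTAF5 and ΔE8 and low in siNT and FL, while TAF4B is lowest in FL.

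The mean TAF12 level was 17.1 ± 0.492 CPM for siNT, 32.2 ± 0.733 for siTAF5, 21 ± 0.847 for FL and 34.2 ± 1.34 for ΔE8. The log2 difference of siTAF5 from siNT was 0.92 (SE 0.0424), a description, since this comparison chose the gene. In that comparison 49.7% of all genes tested were called at an edgeR adjusted p under 0.05 (24.7% higher, 25.0% lower), and the libraries did not overlap for 57.3% of them. TAF8 came next to TAF12 among the subunits other than TAF5, at -0.38. FL lay 0.62 below siTAF5 on the log2 scale (SE 0.0424), and FL stayed 0.30 above siNT (SE 0.045), so 25.6% of the siTAF5 excess over siNT was left in CPM. ΔE8 was 1.00 above siNT (SE 0.0423) and 0.08 above siTAF5 (SE 0.0398), which leaves 113% of that excess. The lowest ΔE8 library, at 33.1 CPM, lay next to the highest siTAF5 library at 33 CPM, so the order of these 2 groups rests on a gap far smaller than the spread within either. The order of the others, siTAF5 over FL over siNT, had no overlap.

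Although all 12 libraries set the spread in the fit, the contrast of ΔE8 with FL shares no library with siTAF5 against siNT. TAF5 itself differed less there than TAF12, at -0.26 on the log2 scale, with no correction for the missing exon. The wording of the choice, TAF12 after TAF5, also holds for FL against siTAF5 and for ΔE8 against siNT, which share the FL or the ΔE8 libraries with this contrast. The TAF12 value here may therefore not be independent of the choice, and its p-value is read with that limit. TAF12 was 1.63-fold higher in ΔE8 than in FL, a log2 difference of 0.70 (SE 0.0423, 95% interval 0.61 to 0.79, edgeR quasi-likelihood adjusted p = 1.74e-10). A fit of these 2 groups alone gave 0.71 (edgeR adjusted p = 4.99e-09). All 3 ΔE8 libraries lay above all 3 FL libraries. Among all genes, 5.52% had a larger difference in size between these groups. TAF4 and TAF4B, the genes taken by name, were also called higher. Of all genes, 17.3% were called higher, 19.7% lower and 37.0% in either direction. Scaling by library totals turned this split, from 3359 higher and 3819 lower to 4072 and 3184. Nor did the FL and ΔE8 libraries overlap for TAF4 or TAF4B; the share of all genes without overlap was 45.7%.

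TAF4, the H2A-like partner, followed the same order of groups over a smaller range. Its levels were 48.4, 48.9 and 47.6 CPM in siNT and 59.3, 57.9 and 58.3 in siTAF5. With a TAF5 transgene they were 49.6, 48.9 and 49.8 for FL and 61.3, 61.1 and 64.5 for ΔE8. Here too siTAF5 and ΔE8 were the high groups, and each library of them was above each library of siNT and FL. The means were 48.3 ± 0.648, 58.5 ± 0.715, 49.4 ± 0.442 and 62.3 ± 1.92 CPM.

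The siTAF5 level of TAF4 was 0.28 above siNT on the log2 scale (SE 0.0295), given as a description. TAF4 fell by 0.24 on the log2 scale in FL against siTAF5 (SE 0.03, edgeR adjusted p = 1.19e-06), and its FL level could not be told from siNT (log2 difference 0.03, 95% interval -0.03 to 0.10, edgeR adjusted p = 0.357), although the libraries did not overlap, the lowest FL and the highest siNT library both rounding to 48.9 CPM. FL left 11.3% of the excess of siTAF5 over siNT, and ΔE8 138%. In FL against siTAF5, 48.8% of genes were called, 24.4% lower, and libraries did not overlap for 56.3%; scaling by library totals changed the split of these calls from 4745 higher and 4732 lower to 3748 and 5788. Against siNT, TAF4 rose 1.29-fold in ΔE8 (log2 0.37, SE 0.0294, edgeR adjusted p = 1.23e-09), where 62.2% of genes were called, 30.8% higher, with no overlap for 65.7%. Against FL, it was 1.26-fold higher in ΔE8 (log2 0.33, SE 0.0299, edgeR adjusted p = 4.05e-08).

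TAF4 in ΔE8 also passed narrowly above siTAF5, by 0.09 on the log2 scale (SE 0.0292, edgeR adjusted p = 0.0169), where 40.6% of genes were called, 20.0% higher, and 49.9% had no overlap. That call was lost without ΔE8 replicate 3, the highest library at 64.5 CPM (edgeR adjusted p = 0.0618), and under 3 other settings given with the processing.

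TAF4B went another way: it was highest in siNT and lowest in FL. Its levels were 40.6, 40.2 and 39.2 CPM in siNT and 35.9, 39.8 and 37.1 in siTAF5. With a TAF5 transgene they were 32.1, 31.9 and 30.9 for FL and 36.7, 35.6 and 35.8 for ΔE8. The siTAF5 libraries overlapped both siNT and ΔE8, and the FL libraries lay below all others. The means were 40 ± 0.711, 37.6 ± 2.01, 31.6 ± 0.633 and 36.1 ± 0.555 CPM.

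Between siTAF5 and siNT the log2 difference of TAF4B was -0.09 (SE 0.0372), and -0.15 without siTAF5 replicate 2, the library at 39.8 CPM. TAF4B fell by 0.25 on the log2 scale in FL against siTAF5 (SE 0.0388, edgeR adjusted p = 1.91e-05) and by 0.34 against siNT (SE 0.0383, edgeR adjusted p = 3.13e-07), to 79.1% of the siNT level. In FL against siNT, 54.6% of genes were called, 26.8% lower, and libraries did not overlap for 59.7%. ΔE8 was lower than siNT by a smaller amount (log2 -0.15, SE 0.0374, edgeR adjusted p = 0.0018), and its difference from siTAF5 did not pass (log2 -0.06, 95% interval -0.14 to 0.02, edgeR adjusted p = 0.217; -0.01 and 0.903 without siTAF5 replicate 2). ΔE8 exceeded FL 1.14-fold (log2 0.19, SE 0.0391, 95% interval 0.11 to 0.27, edgeR adjusted p = 0.000684). Thus the 3 genes were all higher in ΔE8 than in FL, but TAF12 and TAF4 were above siNT in ΔE8 and TAF4B was below it.

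Per length, the 3 transcripts were of the same order. Dividing by the longest protein-coding transcript in GENCODE release 29 (1359 bases for TAF12, 4628 for TAF4 and 5260 for TAF4B), the siNT level was 12.6 ± 0.362 CPM per kilobase for TAF12, 10.4 ± 0.14 for TAF4 and 7.6 ± 0.135 for TAF4B. In ΔE8 the levels were 25.1 ± 0.983, 13.5 ± 0.414 and 6.86 ± 0.106 CPM per kilobase. TAF12 exceeded TAF4 in each group on this scale and TAF4B was the lowest of the 3, with the limit that the counting used a different annotation release and the transcripts in use are not resolved. None of the 4 genes in the table from a list for B cells and germ cells, where TAF4B is known to be high, passed 1 CPM, and DDX4, DAZL and MAEL were under 0.1 CPM. That list summed to between 0.248 and 0.358 CPM in siNT, 0.192 and 0.299 in siTAF5, 0.332 and 0.463 in ΔE8 and 0.593 and 0.696 in FL, the group in which TAF4B was lowest; its part in the TAF4B values was not tested.

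Ratios within a library do not depend on how libraries are scaled. The TAF12 count was 0.365, 0.345 and 0.353 of the TAF4 count in siNT and 0.557, 0.546 and 0.551 of it in siTAF5. It was 0.424, 0.411 and 0.438 in FL and 0.55, 0.541 and 0.552 in ΔE8. siTAF5 and ΔE8 overlapped, and both lay above FL, which lay above siNT with no overlap. The TAF4B count was 0.828 ± 0.00934 of the TAF4 count in siNT, 0.643 ± 0.0415 in siTAF5, 0.640 ± 0.0166 in FL and 0.579 ± 0.0218 in ΔE8. Every siNT library had more TAF4B per TAF4 than any other library, and the ΔE8 libraries, between 0.555 and 0.598, were the lowest, just under the lowest siTAF5 library at 0.606. No test was run on the ratios.

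**Figure D2:**
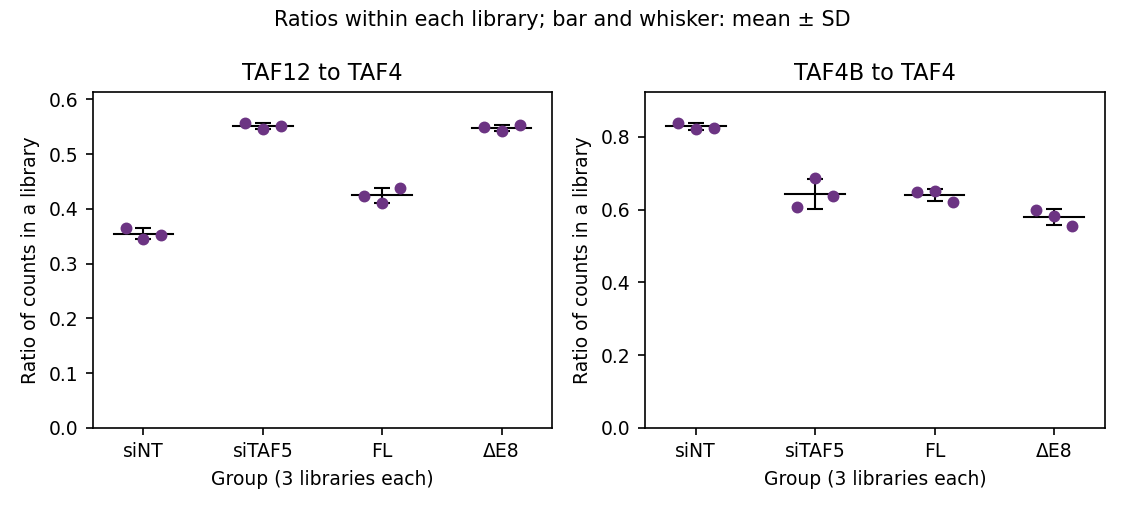
Ratio of TAF12 to TAF4 counts (left) and of TAF4B to TAF4 counts (right) in each library, by group, on axes from 0; bar and whisker are the mean ± SD of 3. The TAF12 ratio is near 0.55 in siTAF5 and ΔE8 and lower in FL and siNT, and the TAF4B ratio is highest in siNT.

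TAF12's partner in SAGA was ordered the other way. TADA1, which pairs with TAF12 there, held 33.1, 32.7 and 34.4 CPM in siNT and 26.7, 28.3 and 26.1 in siTAF5. The add-back libraries held 32.7, 31.2 and 29.9 for FL and 27.8, 25.5 and 27.1 for ΔE8. It was low in the groups in which TAF12 was high. TADA1 rose in FL against siTAF5 (log2 0.21, SE 0.045, edgeR adjusted p = 0.000579), was lower in ΔE8 than in FL (log2 -0.23, SE 0.0452, edgeR adjusted p = 0.000524), and its ΔE8 level could not be told from siTAF5 (log2 -0.01, 95% interval -0.11 to 0.08, edgeR adjusted p = 0.841). Of the 20 SAGA genes listed, 1 was higher and 5 were lower in ΔE8 than in FL, 30.0% of them against 37.0% of all genes, with a median of -0.04 on the log2 scale.

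The other 12 TFIID subunits mostly differed by less. In ΔE8 against FL, 5 were higher and 1 lower, 50% of the list against 37.0% of all genes, with a median log2 difference of 0.06 against -0.009 over all genes. The largest were TAF6, the histone-fold partner of TAF9, at 0.28 (SE 0.027, edgeR adjusted p = 1.17e-07) and TAF8, a partner of TAF10, at -0.27 (SE 0.0389, edgeR adjusted p = 1.28e-05). TAF12 and TAF4 had the largest differences of the 15 subunits other than TAF5 in this comparison, and TAF4B was the fifth in size. The place of TAF12 may not be independent of its choice by size.

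In siTAF5 against siNT the list had 6 higher and 1 lower, 58.3% against 49.7%, with TAF8 at -0.38 and TAF9B, a paralog of TAF9, at 0.36. In FL against siTAF5 it had 5 higher and 1 lower, 50% against 48.8%: TAF8 at 0.24 and TAF6 at -0.16 were the largest of these, and TAF12, TAF4B and TAF4 took places 1, 2 and 4 among the 15. Against siNT, FL had 7 higher and 1 lower, 66.7% against 54.6%, led by TAF13 at 0.47 and TAF3 at 0.45. ΔE8 had 9 higher and 1 lower against siNT, 83.3% against 62.2% and with a median of 0.25, led by TAF3 at 0.62 and TAF9B at 0.56. In ΔE8 against siTAF5, TAF3 at 0.32 and TAF2, a promoter-binding subunit, at 0.22 led 6 higher and 0 lower, 50% against 40.6%. Among the 15 subunits other than TAF5, TAF12, TAF4 and TAF4B were places 1, 7 and 9 by size in siTAF5 against siNT and 1, 6 and 11 in ΔE8 against siNT. They were places 5, 13 and 4 in FL against siNT and 8, 7 and 10 in ΔE8 against siTAF5, so several other subunits differed more than TAF12 in those 2 comparisons. The comparisons of this paragraph share libraries with one another. TAF12 was chosen for its size of change among these subunits, so its places here are a description, not a finding.

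**Figure D3:**
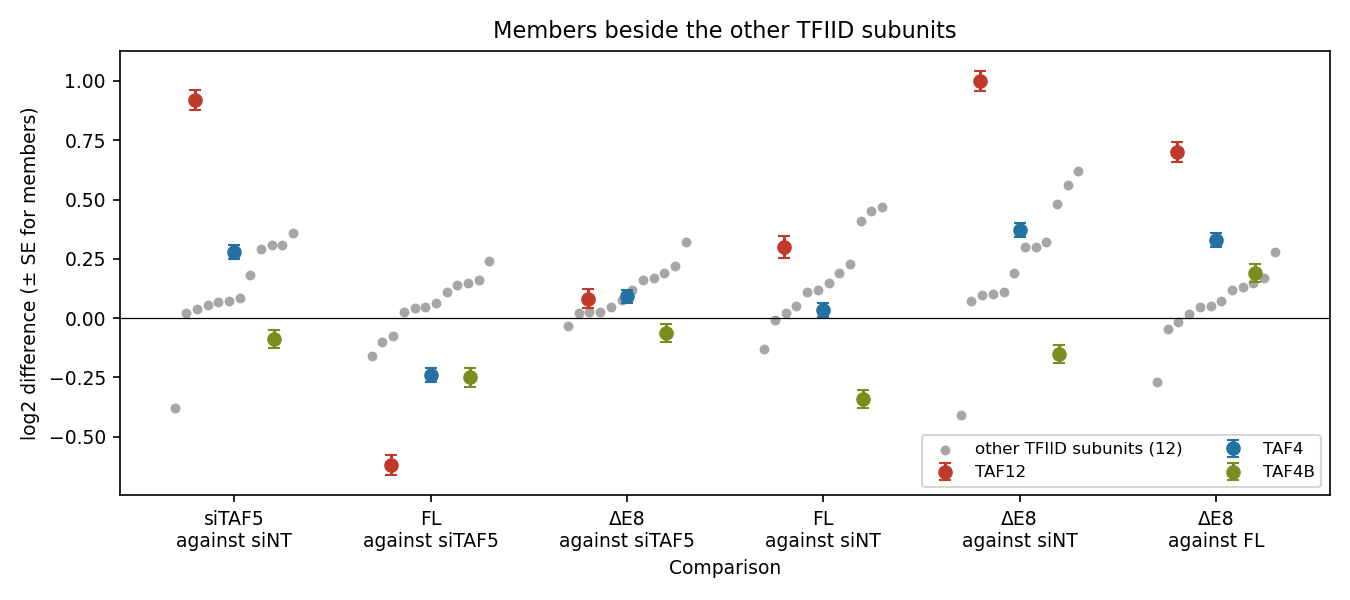
Log2 difference (vertical axis) of TAF12, TAF4 and TAF4B with SE whiskers, and of the 12 other TFIID subunits in grey without error, in the 6 comparisons (horizontal axis). TAF12 stands apart from the grey points in siTAF5 against siNT (0.92), in ΔE8 against siNT (1.00) and, by 0.70, in ΔE8 against FL, and lies among them in ΔE8 against siTAF5. TAF12 was chosen for the size of its difference among these subunits, so its standing apart is a description.

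The 3 genes lie on different chromosomes (hg38 positions of the deposited table). TAF12 (ENSG00000120656) spans chromosome 1 from 28587829 to 28648291 on the minus strand, TAF4 (ENSG00000130699) chromosome 20 from 61953469 to 62065881 on the minus strand, and TAF4B (ENSG00000141384) chromosome 18 from 26226445 to 26391685 on the plus strand. The 250 bases before each RefSeq start are shown as a description (build GRCh38.p14, each on the gene's own strand, 5′ to 3′). Whether they bear on the levels was not tested. The windows are chr1:28643068-28643317, chr20:62065882-62066131 and chr18:26226195-26226444. Capitals mark matches, on either strand, to 7 motifs whose letters are given after the sequences; the motifs were chosen with these sequences in view, and neighbouring GC boxes in TAF4 overlap.
TAF12: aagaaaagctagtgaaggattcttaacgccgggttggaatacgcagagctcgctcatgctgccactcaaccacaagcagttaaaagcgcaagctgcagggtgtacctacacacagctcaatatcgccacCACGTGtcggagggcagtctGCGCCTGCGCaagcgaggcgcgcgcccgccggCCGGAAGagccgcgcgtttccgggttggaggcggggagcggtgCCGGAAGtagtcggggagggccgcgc
TAF4: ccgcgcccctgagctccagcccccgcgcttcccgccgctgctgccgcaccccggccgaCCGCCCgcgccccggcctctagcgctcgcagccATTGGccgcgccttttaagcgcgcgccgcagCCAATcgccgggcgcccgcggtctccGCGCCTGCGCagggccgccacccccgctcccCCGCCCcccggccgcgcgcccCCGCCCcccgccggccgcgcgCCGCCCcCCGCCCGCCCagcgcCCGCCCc
TAF4B: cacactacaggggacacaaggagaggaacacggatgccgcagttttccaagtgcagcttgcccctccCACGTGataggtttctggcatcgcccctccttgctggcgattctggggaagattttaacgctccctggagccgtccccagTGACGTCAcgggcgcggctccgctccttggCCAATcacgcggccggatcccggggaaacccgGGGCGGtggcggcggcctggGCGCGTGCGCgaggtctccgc
The NRF1 motif (GCGC, any base, then TGCGC) was present in each of the 3 windows, its first base lying 101 bases before the start in TAF12, 102 in TAF4 and 21 in TAF4B, while 5.07% of 35116 promoters held it in the same 250 bases. TAF12 had 2 matches to the ETS motif CCGGAAG, which 8.52% of promoters held at least once, and an E-box, spelled CACGTG and held by 6.34%. TAF4 had 7 matches to the GC box GGGCGG (42.6% of promoters held at least 1) and 2 CCAAT boxes, spelled as named (32%). TAF4B had an E-box, a GC box, a CCAAT box and the cAMP response element TGACGTCA (1.65%). No TATA box, searched as TATAAA, was found in the 3 windows, where 10.7% of promoters held it, and TAF4B had 1 that began at base 8 after the RefSeq start. The TAF4 window was 86% G and C, more than 99.8% of promoters, and the others 63.2% (TAF12) and 66.4% (TAF4B). The median over the 35116 promoters was 58%. The shares of promoters with a motif were not matched for G and C content, so they do not measure enrichment. These matches describe letters and do not show binding.

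A divergent transcript begins near the start of TAF12 and another near that of TAF4. TAF12-DT, a noncoding RNA on the opposite strand, begins 161 bases from the RefSeq start of TAF12 and overlaps in part the span the table gives to TAF12. It had 6, 9 and 13 counts in siNT and 16, 20 and 21 in siTAF5. The add-back groups had 19, 8 and 12 for FL and 22, 24 and 12 for ΔE8. Its log2 difference was 1.15 in siTAF5 against siNT (SE 0.336), and it was 2.27-fold higher in ΔE8 than in siNT (edgeR adjusted p = 0.00453), while ΔE8 against FL did not pass (log2 0.45, SE 0.318, edgeR adjusted p = 0.292). Whether reads were counted by strand is not stated. TAF12-DT and RAB42, the other gene overlapping TAF12, had at most 24 and 10 counts in a library, and TAF12 had 848 or more. These counts were assigned by that same unstated method, so they cannot show how reads from shared stretches were split between the genes. The part of such reads in the values of TAF12 or TAF12-DT was not tested.

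The unnamed noncoding gene ENSG00000283078 begins 949 bases from the start of TAF4 and runs away from it. It had 27, 21 and 35 counts in siNT and 50, 67 and 84 in siTAF5. The add-back groups had 53, 24 and 20 for FL and 63, 46 and 48 for ΔE8. Like TAF4 it fell in FL against siTAF5 (log2 -0.93, SE 0.236, edgeR adjusted p = 0.00264) and was higher in ΔE8 than in siNT (log2 1.07, SE 0.249, edgeR adjusted p = 0.000882). Its FL libraries ran from 20 to 53 counts, and ΔE8 against FL did not pass (log2 0.60, 95% interval 0.09 to 1.11, edgeR adjusted p = 0.0591).

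Genes farther out did not share one direction. Around TAF12, TRNAU1AP, which takes part in selenocysteine incorporation and lies 9.3 kb away, was higher in ΔE8 than in FL (log2 0.22, edgeR adjusted p = 0.00237). GMEB1, a glucocorticoid-modulatory-element binding protein 20.5 kb away, was lower (-0.19, edgeR adjusted p = 0.00334), and SNHG12, a snoRNA host 4.7 kb away, was at -0.11 (edgeR adjusted p = 0.182). SNHG3, another snoRNA host, 76.9 kb away and named after its values were seen, stood at 65.5 ± 0.221 CPM in siNT, 20.1 ± 1.43 in siTAF5, 40.3 ± 0.34 in FL and 19 ± 1.24 in ΔE8. It was lower in ΔE8 than in FL (log2 -1.09, SE 0.0473, edgeR adjusted p = 2.61e-12), a larger difference than that of TAF12 and in the opposite direction. Around TAF4, the cadherin CDH4, 12.9 kb away, was lower in ΔE8 than in FL (log2 -0.38, edgeR adjusted p = 1.36e-05), LSM14B, an RNA-binding protein gene 56.6 kb away, was higher (0.14, edgeR adjusted p = 0.0004), and the proteasome gene PSMA7, 70.9 kb away, was at -0.01 (edgeR adjusted p = 0.858). Near TAF4B, 2 genes were tested: KCTD1, 63.2 kb away, was at 0.07 (edgeR adjusted p = 0.22) and the pseudogene DHFRP1, whose reads may belong to its parent gene, at -0.15 (edgeR adjusted p = 0.527).

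**Figure D4:**
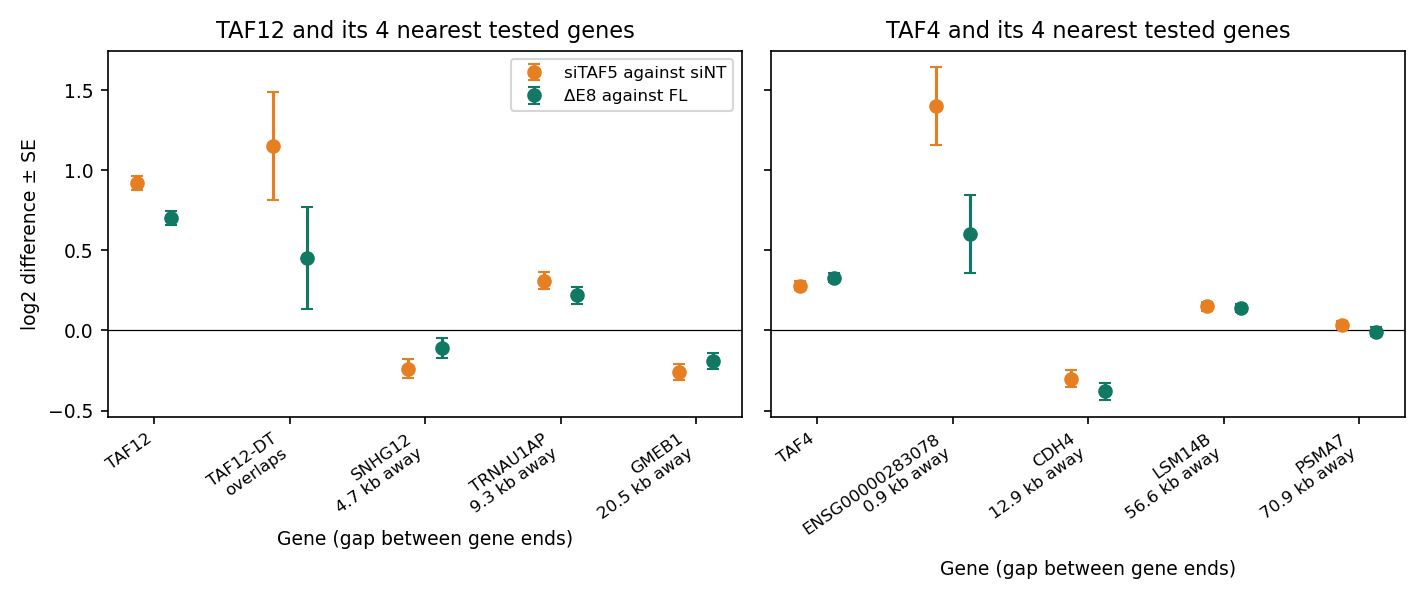
Log2 difference ± SE (vertical axis) for TAF12 (left) and TAF4 (right) and the 4 tested genes nearest to each, ordered by the gap between gene ends in kilobases, for the TAF5 knockdown and for ΔE8 against FL. The divergent transcripts have wide errors and lie on the same side of 0 as TAF12 and TAF4, whereas the other genes lie on both sides.

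Genes whose levels ran most like each member were found by Pearson's r of log2 CPM over the 12 libraries, among 12270 genes whose mean log2 CPM reached 2. Since the libraries form 4 groups of 3, a high r says mainly that the group levels stand in like proportion. For TAF12 they were ARL6IP1, an endoplasmic reticulum shaping protein (r = 0.996), UBE2Z, a ubiquitin-conjugating enzyme (0.995), UROS of haem synthesis (0.994), COG4 of the Golgi tethering complex (0.994) and the glycogen phosphorylase PYGB (0.994). Of these UROS came closest in size: it stood at 2.09-fold the siNT level in siTAF5, 1.30-fold in FL and 2.10-fold in ΔE8, beside 189%, 123% and 199.8% for TAF12. For TAF4 they were the anaphase-promoting complex subunit ANAPC11 (0.986), the transporter ABCC10 (0.982), the actin-binding TRIOBP (0.981), TTC38 (0.979) and TPRN (0.979). For TAF4B they were the ubiquitin ligase MIB1 (0.966), the TGF-beta signal transducer SMAD3 (0.960), FAM89A (0.957), the transcriptional repressor HES1 (0.954) and NHLRC3 (0.952). MIB1 stood at 0.745 of its siNT level in FL and HES1 at 0.743, beside 0.791 for TAF4B.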

How the data were processed

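Per the labels' protocols, polyadenylated RNA was made into stranded libraries. The authors deposited 1 table of estimated counts per gene, not normalized. Per the submitters' processing notes, the build was hg38 and the tools included STAR 2.7.0f, cutadapt 1.18, DESeq2 and Partek 10.0.23.0531; their roles, the annotation release and whether strand was used in counting are not given in these sources. Groups came from the sample titles. The design was written for counts, so the estimated counts were rounded to whole numbers. Genes were kept by filterByExpr (minimum count 10), libraries scaled by TMM, and all 12 fitted in 1 edgeR quasi-likelihood model with group means (R 4.3.3, edgeR 4.0.16, limma 3.58.1), tested on simulated data first. Tests of the 6 comparisons were two-sided, and p-values were adjusted (Benjamini-Hochberg) over 19424 genes, with a threshold of 0.05. The SE is the log2 difference divided by the root of F. With TMM scaling, a difference is relative to most other genes. Between replicates, chi-square over its degrees of freedom was 2.6 to 5.14, so no pair agreed within sampling noise and counting intervals were not used.

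Alternatives were DESeq2 1.42.0 (its test, and its size factors alone), upper-quartile and library-total scaling, no filter, 2-group fits, a replicate block and leaving out each library. Members, gene lists and tests were chosen with earlier results of these data known. The text names the 3 members, TAF5, TADA1, the 2 other TFIID subunits with the largest difference in each comparison, the 5 genes most like each member, and up to 4 tested genes within 100 kb of a member. RAB42, which was not tested, and SNHG3 were named after their values were seen. Positions are the table's, with 1 base taken from its stop. Promoters are from RefSeq tables, in which all 3 members were found. Protein sequences were not used here, and 1 marker gene of the lists is not reported here and was left out of their sums.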

Additional observations from a re-analysis of the deposited data

Results flagged for a closer look

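FL and ΔE8 differed from siTAF5 by unequal amounts for each of the 3 genes, by the edgeR test of ΔE8 against FL. This contrast equals the difference of the 2 add-back effects, since siTAF5 is common to both. For TAF12 the add-back effect was 0.70 higher on the log2 scale without exon 8 (edgeR adjusted p = 1.74e-10): FL lay 0.62 below siTAF5 and ΔE8 0.08 above it. This value may not be independent of the choice of TAF12. For TAF4 it was 0.33 higher (edgeR adjusted p = 4.05e-08), with effects of -0.24 and 0.09. For TAF4B it was 0.19 higher (edgeR adjusted p = 0.000684), with effects of -0.25 and -0.06. In each case 3 of 3 ΔE8 libraries were above 3 of 3 FL libraries, while the libraries did not overlap, in either direction, for 45.7% of all genes. In this comparison 37.0% of all genes were called. TAF5 RNA differed too, at 88 CPM in ΔE8 and 105 CPM in FL, and its part in these differences was not tested. These TAF5 levels are not corrected for the exon that the ΔE8 transcript lacks. The doxycycline dose also differed between FL and ΔE8, so dose and form of the protein cannot be told apart. The line in which the siTAF5 cells were grown is not stated.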

How the results depend on the processing

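Of the alternatives run on TAF12 (78 values over 6 comparisons) and on TAF4B (78), all kept direction and side of the threshold where tested, and elsewhere moved by less than the spread between replicates; the same held for 73 of 78 on TAF4. The exceptions were TAF4 in siTAF5 against siNT, at 0.31 with scaling by library totals, and TAF4 in ΔE8 against siTAF5. The latter was no longer called with upper-quartile scaling (0.07, edgeR adjusted p = 0.0966), with library totals (0.07, edgeR adjusted p = 0.0654) or without a filter (0.08, edgeR adjusted p = 0.0857). The call was also lost without ΔE8 replicate 3 (0.07, edgeR adjusted p = 0.0618). Leaving out 1 library gave between 0.07 and 0.11, and the cause was not tested. TAF12 in ΔE8 against FL ran from 0.68 to 0.73 over its alternatives, TAF4 from 0.31 to 0.36 and TAF4B from 0.17 to 0.22, with adjusted p (edgeR or DESeq2) of at most 6.59e-09, 7.71e-07 and 0.00462. The TAF12 values may not be independent of its choice by size, and the alternatives reuse the same libraries. Counts of genes and of other TFIID subunits called stayed within 1.5 times. Same-numbered libraries of different groups did not deviate together (r between -0.0507 and 0.0512 over 18 pairs), so no pairing by number was seen. With 3 libraries a group this cannot exclude a pairing. A replicate block gave 0.70 for TAF12, 0.33 for TAF4 and 0.19 for TAF4B in ΔE8 against FL, and 7409 genes called against 7178. TAF12-DT had at most 24 counts in a library, so depth limits its comparisons.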
